A study of Rattus norvegicus with 56 samples.

Results

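Osgin1, Gclc, Gclm, Hmox1, Nqo1, Txnrd1, Srxn1, Nfe2l2 and Keap1, which are NRF2 itself, its inhibitor and their best known antioxidant targets, were followed in rat kidney tubules after ureteral obstruction. These 9 genes were taken from a list of symbols, chosen with earlier results of these data known. Of them 8 were found among the 32883 genes of the tables. Srxn1, sulfiredoxin, was not found under its symbol and has no expression value here. RNA came from cortical collecting duct (CCD) and cortical thick ascending limb (cTAL) tubules microdissected from male Sprague-Dawley rats of 120 to 160 g whose left ureter had been tied (UUO, unilateral ureteral obstruction) or exposed without a tie (sham). Both segments were taken at 30 min and at 3 h, from 4 numbered replicates per arm, with 2 libraries per number for CCD and 1 for cTAL. All rats shared strain, sex and the operation up to the ligature, the labels name no transgene or drug, and they give no age. The labels do not say which libraries share an animal, so p-values measure the spread between the numbered replicates. Every result below is from tubules pooled in a library, in which fewer cells of a type and less RNA per cell cannot be told apart.

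NRF2, encoded by Nfe2l2, is a transcription factor that KEAP1 holds in the cytoplasm and passes on for degradation. Oxidants and electrophiles modify cysteines of KEAP1, NRF2 then builds up in the nucleus, pairs with a small MAF protein and binds antioxidant response elements. Its targets make glutathione (Gclc and Gclm, the catalytic and modifier subunits of glutamate-cysteine ligase), keep thioredoxin reduced (Txnrd1), reduce quinones (Nqo1), repair peroxiredoxins (Srxn1) and break down haem (Hmox1). Osgin1, oxidative stress induced growth inhibitor 1, is a further target known from other cell types. Since NRF2 is controlled mainly as a protein, its mRNA level need not follow its activity.

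The core of the antioxidant response element was looked for as TGACNNNGC and TGAGNNNGC, on both strands, in windows from 250 bases before to 50 after each gene start in the RefSeq table of the rat build GRCr8. These letters were in 12.1% and 17.2% of all 33469 windows, and 27.1% held at least one of them. Of the 9 genes 8 had a window, Hmox1 not among them, and Txnrd1 had 2, which made 9 windows, of which 4 held a match. The 3 windows below are shown because Gclm and Txnrd1 are the genes with a match that were called higher at 3 h (below), and Osgin1 had the largest rise but no match. Each is written 5′ to 3′ on the gene's strand, with the core in capitals. The matches in Gclm and Txnrd1 lie on the opposite strand, so that the capitals read as the reverse complement of TGACTAAGC and TGACAAAGC. A match is a run of letters and was not tested for binding.
Gclm, chr2:213031885-213032184, plus strand: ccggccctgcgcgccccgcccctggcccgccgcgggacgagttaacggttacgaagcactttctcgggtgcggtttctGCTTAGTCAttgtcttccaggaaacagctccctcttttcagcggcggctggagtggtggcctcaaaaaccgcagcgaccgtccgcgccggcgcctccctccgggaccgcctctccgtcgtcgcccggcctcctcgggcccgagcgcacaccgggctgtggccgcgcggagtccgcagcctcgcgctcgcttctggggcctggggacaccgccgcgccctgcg
Txnrd1, chr7:22755855-22756154, minus strand: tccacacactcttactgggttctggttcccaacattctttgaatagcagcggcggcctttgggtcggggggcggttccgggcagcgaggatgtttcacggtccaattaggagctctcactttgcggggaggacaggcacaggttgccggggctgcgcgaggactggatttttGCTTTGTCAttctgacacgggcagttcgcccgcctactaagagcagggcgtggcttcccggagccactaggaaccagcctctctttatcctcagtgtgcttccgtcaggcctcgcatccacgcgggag
Osgin1, chr19:64393651-64393950, plus strand: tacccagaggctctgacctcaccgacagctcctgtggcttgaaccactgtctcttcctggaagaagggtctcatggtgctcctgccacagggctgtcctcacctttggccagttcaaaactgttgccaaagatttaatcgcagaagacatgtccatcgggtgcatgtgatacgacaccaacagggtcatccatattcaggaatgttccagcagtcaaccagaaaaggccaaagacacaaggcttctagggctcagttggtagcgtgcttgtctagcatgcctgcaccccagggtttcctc
The Gclm core begins 172 bases before the gene start and the Txnrd1 core 78 bases before it. Srxn1 had 3 matches, the farthest 118 bases before its start, and Nfe2l2 had 1, which begins 38 bases after its start. Gclc, Nqo1, Keap1, Osgin1 and the other Txnrd1 window had none. Sequence outside these windows was not searched, so a gene without a match here may have one farther away.

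Values are TPM (a level per transcript, scaled to a fixed total per library), and a CCD replicate is given as the mean of its 2 libraries. TPM hold no record of read depth, which is therefore unknown. Between 8744 and 11916 genes reached 1 TPM per library at 30 min and between 9585 and 10750 at 3 h. Changes are log2 differences of TPM + 1, UUO minus sham, tested with limma over all genes above a low-value filter and called at a Benjamini-Hochberg adjusted p under 0.05. The 8 genes found passed the filter in every comparison. In sham tubules the summed level of 6 principal cell markers averaged 9500 TPM in CCD against 82.2 TPM in cTAL at 30 min, and 16500 against 228 TPM at 3 h. The 5 intercalated cell markers summed to 4960 and 144 TPM at 30 min, and to 5170 and 253 TPM at 3 h. The 4 thick limb markers summed to 164 and 56500 TPM at 30 min and to 2140 and 43700 TPM at 3 h, so the labelled segments carried their defining markers. At 3 h 2 sham and 1 UUO library of CCD held over 5000 TPM of the thick limb gene Umod, and leaving them out kept 5 of the 8 genes called in CCD.

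At 3 h Osgin1, both subunits of glutamate-cysteine ligase, Txnrd1 and Hmox1 were higher in UUO than in sham in both segments, and at 30 min none of the 8 genes was called in either. In CCD at 3 h 5 of the 8 genes were called higher (Osgin1, Gclc, Gclm, Txnrd1 and Hmox1) and 0 lower, where 5.0% of all 10530 genes tested were called higher and 8.04% lower. In cTAL at 3 h these 5 genes and Nqo1 were called higher and 0 were lower, against 4.06% and 7.64% of 10023 genes. Nfe2l2 and Keap1 were called in neither segment. The median change of the 8 genes was 1.43 in CCD and 1.72 in cTAL, beside medians of -0.14 and -0.12 over all genes tested. The 8 genes were chosen with earlier results of these data known. Their excess over all genes may therefore be partly built in and is no test of NRF2 targets at large. Another 24 NRF2 targets tested (below) had a median change of -0.01 in CCD and 0.07 in cTAL. Over all genes the calls split into 526 higher and 847 lower in CCD and 407 and 766 in cTAL. With 1 replicate left out they ranged from 229 to 617 higher and 231 to 1156 lower in CCD and from 207 to 406 and 264 to 630 in cTAL. After median-of-ratios rescaling the calls were 700 higher and 455 lower in CCD and 492 and 414 in cTAL, which left the 5 and 6 calls among the 8 genes in number.

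**Figure D1:**
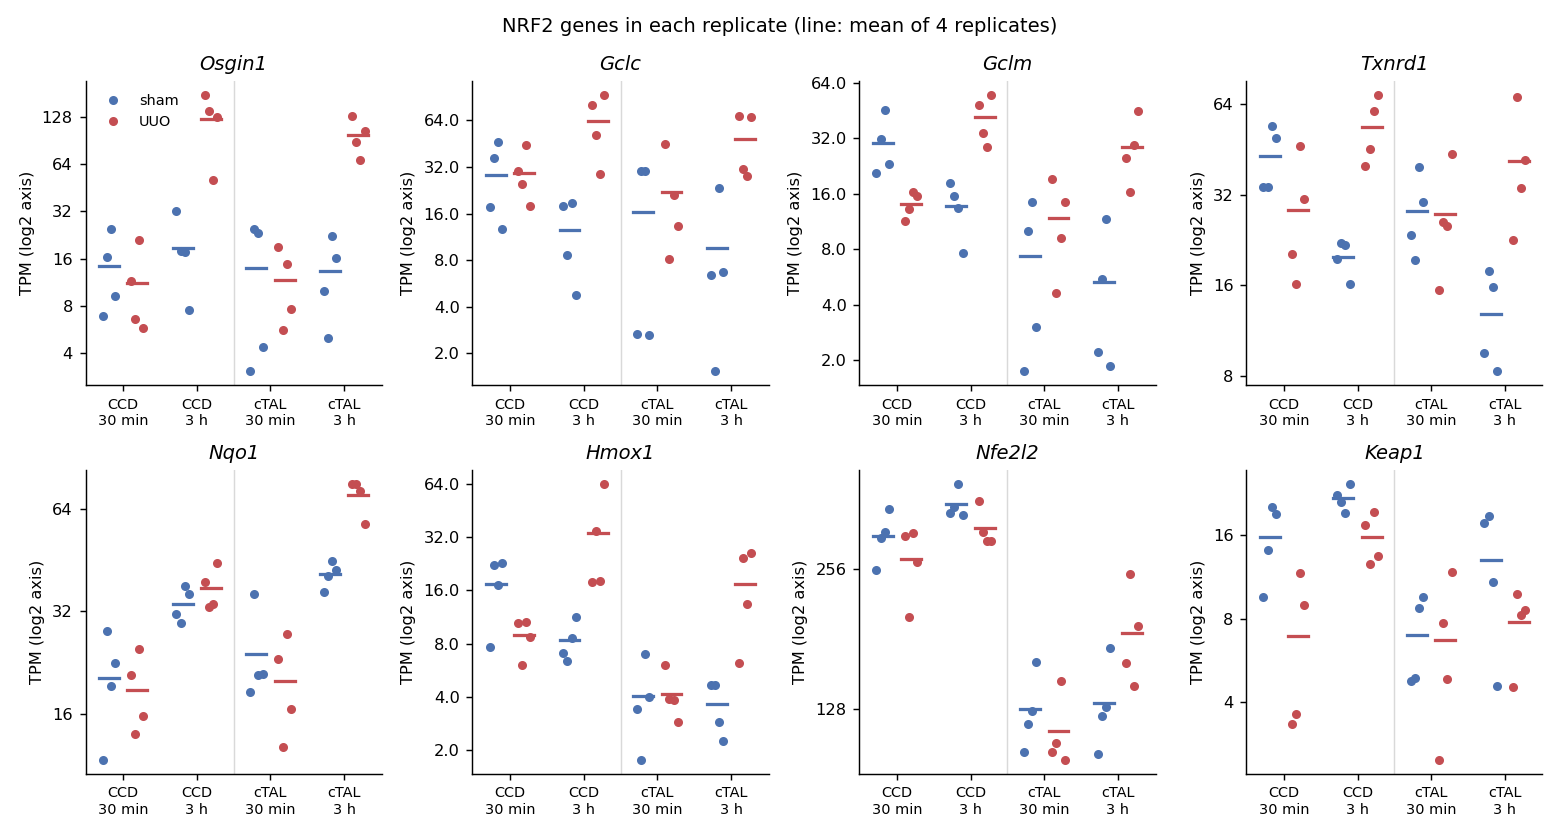
Level of each gene in each replicate, in TPM on a log2 axis, for sham and UUO in CCD and cTAL at 30 min and 3 h (points, 4 per group; horizontal line, mean; a CCD point is the mean of 2 libraries). At 3 h the UUO and sham points of Osgin1, Gclc, Gclm, Txnrd1 and Hmox1 do not overlap in either segment, and those of Nqo1 do not overlap in cTAL.

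Osgin1 had the largest change of the 8 genes in both segments. In CCD at 3 h it stood at 177, 139.7, 50.9 and 128 TPM in UUO replicates 1 to 4 and at 32.1, 17.8, 17.5 and 7.57 TPM in sham replicates 1 to 4. Every UUO replicate lay above every sham replicate, and UUO replicate 3 was the lowest of its arm. The mean was 124 ± 53.0 TPM in UUO against 18.7 ± 10.1 TPM in sham (SD, n = 4 each), a log2 change of 2.39 (SE 0.43, 5.25-fold, limma adjusted p = 0.0112). Osgin1 in cTAL at 3 h was at 129.97, 89.1, 68.3 and 104 TPM in UUO and at 9.98, 4.99, 22.2 and 16.1 TPM in sham. The arms again did not overlap, and the log2 change was 2.92 (SE 0.39, 7.57-fold, limma adjusted p = 0.00274). At 30 min the arms overlapped in both segments, with means of 11.2 TPM in UUO against 14.3 TPM in sham in CCD and 11.8 and 13.9 TPM in cTAL.

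Gclc, the catalytic subunit that sets the rate of glutathione synthesis, had the next largest change. In CCD at 3 h it stood at 79.96, 51.6, 28.9 and 93.7 TPM in UUO and at 17.8, 8.69, 18.6 and 4.76 TPM in sham. The lowest UUO replicate was again replicate 3, and it remained above the highest sham replicate. The log2 change was 2.16 (SE 0.46, limma adjusted p = 0.0181). Gclc in cTAL at 3 h was at 68.5, 30.9, 28.2 and 67.8 TPM in UUO and at 6.44, 1.53, 23.4 and 6.71 TPM in sham. Sham replicate 3 came close to the 2 lowest UUO replicates, and the log2 change of 2.57 had the largest error of the 8 genes (SE 0.60, limma adjusted p = 0.0255). Leaving out 1 of 8 replicates ended the call of Gclc in 1 fit in CCD (without sham replicate 2, adjusted p = 0.0557) and in 4 fits in cTAL (adjusted p up to 0.0676). With no filter on low values Gclc was also not called in cTAL (adjusted p = 0.0612).

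Gclm, the modifier subunit that eases the binding of glutamate by the ligase, was also higher in both segments. The CCD levels at 3 h were 48.3, 34.2, 28.6 and 54.9 TPM in UUO and 18.3, 15.4, 13.3 and 7.59 TPM in sham, with no overlap. The log2 change was 1.51 (SE 0.31, limma adjusted p = 0.0169). The cTAL levels were 24.9, 16.3, 29.3 and 44.6 TPM in UUO and 2.20, 5.48, 11.7 and 1.85 TPM in sham, with a log2 change of 2.42 (SE 0.49, limma adjusted p = 0.0151). Every UUO replicate was above the highest sham replicate in both segments.

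Txnrd1, the cytosolic thioredoxin reductase, had the smallest adjusted p of the 8 genes in CCD at 3 h. It was at 39.8, 45.6, 60.6 and 68.8 TPM in UUO and at 19.6, 22.1, 21.9 and 16.2 TPM in sham, and the sham replicates lay close together. The log2 change was 1.36 (SE 0.19, 2.57-fold, limma adjusted p = 0.00538). Txnrd1 in cTAL at 3 h was at 22.7, 67.6, 33.7 and 41.7 TPM in UUO and at 9.56, 17.8, 15.7 and 8.29 TPM in sham, a log2 change of 1.57 (SE 0.35, limma adjusted p = 0.0216). The UUO replicates spread wider in cTAL, and 3 of 8 fits without 1 replicate lost the call (adjusted p up to 0.0553).

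Hmox1, the inducible haem oxygenase, had the widest relative spread in UUO. In CCD at 3 h it was at 17.97, 34.99, 18.2 and 64.7 TPM in UUO and at 7.06, 6.36, 8.62 and 11.3 TPM in sham. UUO replicate 4 stood above the rest and no UUO replicate reached down to the sham range (log2 change 1.64, SE 0.38, limma adjusted p = 0.0246). Its cTAL levels at 3 h were 6.18, 24.3, 13.4 and 26.0 TPM in UUO and 4.67, 4.63, 2.89 and 2.25 TPM in sham. UUO replicate 1 was close to sham replicate 1, and the log2 change was 1.86 (SE 0.43, limma adjusted p = 0.0244). With 1 replicate left out, 4 of 8 fits did not call Hmox1 in CCD (adjusted p up to 0.0715) and 4 of 8 did not in cTAL (adjusted p up to 0.0646). With no filter on low values it was called in neither segment (limma adjusted p = 0.0566 in CCD and 0.0540 in cTAL).

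Nqo1, the quinone reductase, was called in cTAL alone, but the difference between the segments was not. In cTAL at 3 h it stood at 75.8, 75.6, 72.04 and 57.6 TPM in UUO and at 36.5, 40.6, 44.9 and 42.3 TPM in sham, a log2 change of 0.76 (SE 0.15, 1.69-fold, limma adjusted p = 0.0151). In CCD it was at 39.1, 32.9, 33.6 and 44.3 TPM in UUO and at 31.5, 29.5, 37.9 and 36.1 TPM in sham, where the arms overlapped (log2 change 0.14, SE 0.14, limma adjusted p = 0.554). The change in CCD minus that in cTAL was -0.62 (SE 0.21, limma adjusted p = 0.206).

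For each called gene at 3 h the two-sided exact permutation p on replicate means was 0.0286, the smallest that 4 against 4 allow. Of all genes tested, 6.25% in CCD and 5.68% in cTAL had every UUO replicate above every sham replicate.

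Nfe2l2 and Keap1, the sensor pair, showed no called change. Nfe2l2 was abundant, with 358, 306, 293.7 and 293 TPM in UUO and 337, 346, 389.8 and 333 TPM in sham CCD at 3 h, and the arms overlapped (log2 change -0.19, SE 0.10, limma adjusted p = 0.228). In cTAL at 3 h it was at 161, 249.8, 143 and 193 TPM in UUO and at 103, 123, 129 and 173 TPM in sham (log2 change 0.49, SE 0.20, limma adjusted p = 0.148). The changes of Nfe2l2 lay on opposite sides of 0 in the segments, and their difference of -0.68 was not called (SE 0.23, limma adjusted p = 0.198). Keap1 was at 17.5, 12.7, 19.5 and 13.5 TPM in UUO and at 22.3, 21.1, 19.3 and 24.6 TPM in sham CCD at 3 h, with UUO replicate 3 just above sham replicate 3 (log2 change -0.44, SE 0.17, limma adjusted p = 0.117). Keap1 in cTAL at 3 h was at 4.54, 9.80, 8.28 and 8.64 TPM in UUO and at 17.8, 18.8, 10.9 and 4.58 TPM in sham (log2 change -0.55, SE 0.42, limma adjusted p = 0.431).

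**Figure D2:**
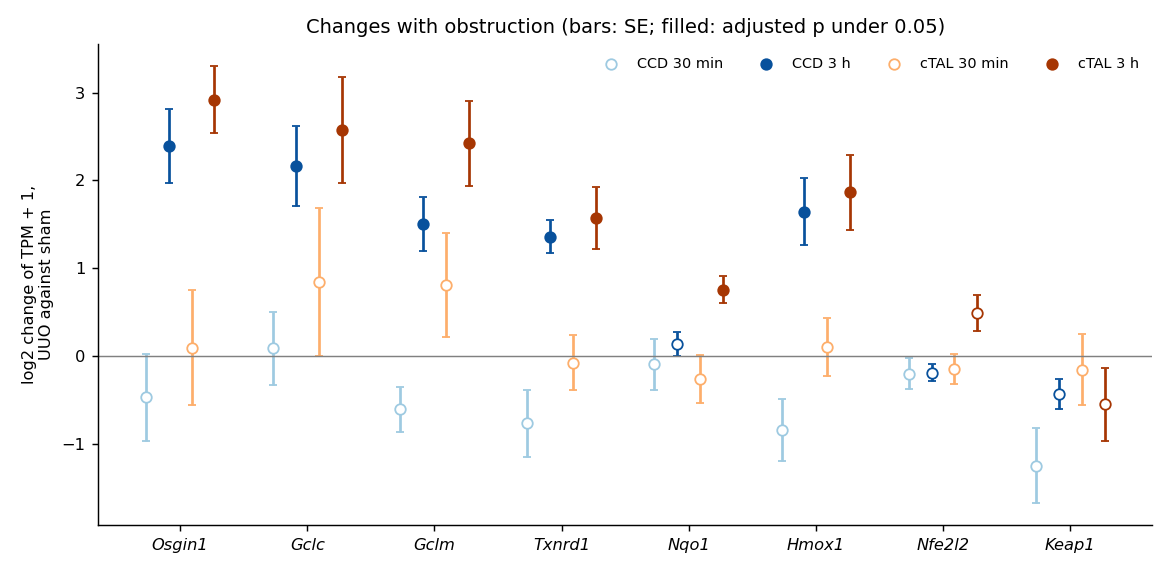
Log2 change of TPM + 1 with obstruction for each gene in CCD and cTAL at 30 min and 3 h (points, limma estimate; bars, SE; filled, adjusted p under 0.05; open, not called). The 5 filled CCD points and 6 filled cTAL points are all at 3 h and lie between 0.76 and 2.92.

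At 30 min the picture was different in CCD, where 7 of the 8 genes had a change below 0 but 0 were called. The median of the 8 was -0.54, while the median of all 11369 genes was -0.31 and only 0.0264% of genes were called in either direction. Keap1 had the lowest value, with 3.34, 3.62, 11.7 and 9.0 TPM in UUO and 9.60, 14.1, 20.2 and 19.1 TPM in sham (log2 change -1.25, SE 0.43, limma adjusted p = 0.272). UUO replicate 3 overlapped sham replicate 1 alone. Hmox1 was at 10.5, 6.07, 10.5 and 8.67 TPM in UUO and at 7.64, 22.4, 17.3 and 22.8 TPM in sham, where sham replicate 1 was within the UUO range (log2 change -0.84, SE 0.35, limma adjusted p = 0.297). Txnrd1 had a log2 change of -0.77 (adjusted p = 0.340), Osgin1 one of -0.47 (adjusted p = 0.554), and Gclc one of 0.09 (adjusted p = 0.897), all from limma. At an unadjusted p under 0.05, 1789 of all genes passed. Library 2 of UUO replicate 2 stood apart, with Keap1 at 0.87 TPM and Nfe2l2 at 134 TPM beside 6.37 and 270.4 TPM in library 1, and 0 of the 8 genes were called with that number taken from library 1 alone.

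Gclm in CCD at 30 min showed how far the result rested on the library. Its replicate means were 11.3, 13.1, 16.3 and 15.5 TPM in UUO and 20.6, 31.7, 45.5 and 23.3 TPM in sham, which do not overlap. Those sham means each joined a high library 1, at 35.6, 53.8, 79.5 and 37.5 TPM, with a low library 2, at 5.54, 9.68, 11.5 and 9.11 TPM. In UUO library 1 was at 16.01, 13.8, 10.5 and 14.1 TPM and library 2 at 6.67, 12.5, 22.2 and 16.9 TPM. With the libraries averaged on the log2 scale, as tested, the arms overlapped and the log2 change was -0.61 (SE 0.25, limma adjusted p = 0.298). From library 1 alone it was -1.79 (limma adjusted p = 0.00406), and from library 2 alone 0.57 and not called. The split was not limited to Gclm. Over all genes library 1 alone called 6 higher and 872 lower, and library 2 alone 1 higher and 0 lower.

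**Figure D3:**
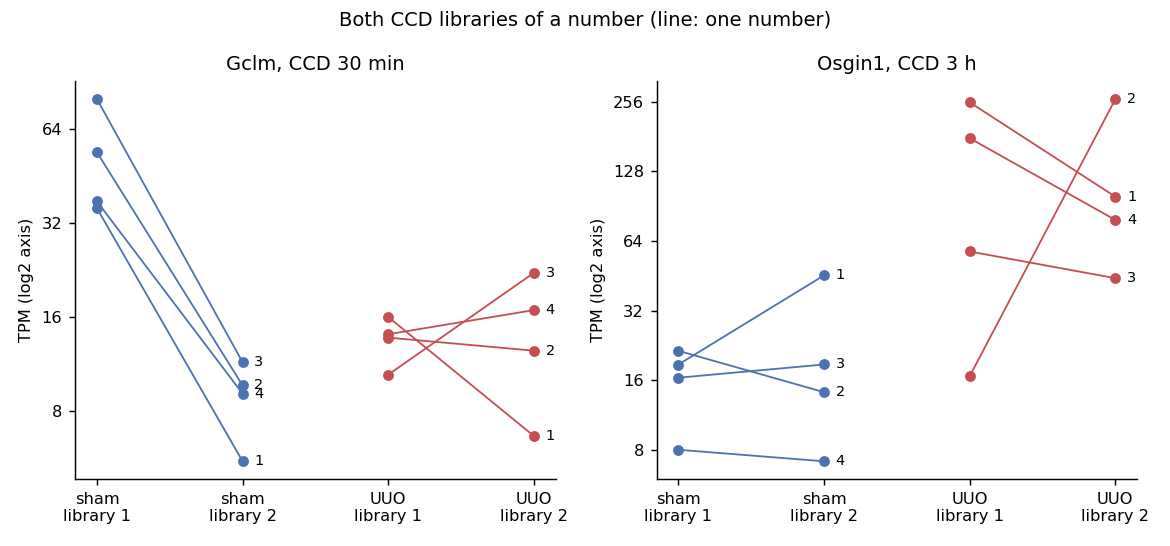
TPM on a log2 axis in library 1 and library 2 of each CCD replicate number, for Gclm at 30 min (left) and Osgin1 at 3 h (right); each line joins the libraries of 1 number, written at its end, in sham and UUO. For Gclm all 4 sham lines fall steeply from library 1 to library 2; for Osgin1 UUO number 2 rises from 16.6 to 263 TPM while the other UUO numbers fall.

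In cTAL at 30 min 0 of the 8 genes were called, where 0.00910% of 10993 genes were, and 250 genes had an unadjusted p under 0.05. Their median change was 0.01 beside -0.07 over all genes. Gclc stood at 2.67, 30.02, 30.4 and 2.61 TPM in the 4 sham replicates and at 45.2, 8.11, 21.2 and 13.3 TPM in UUO. Osgin1 was at 3.07, 24.7, 23.4 and 4.41 TPM in sham and at 19.0, 5.63, 14.7 and 7.68 TPM in UUO. Sham replicates 2 and 3 were high and sham replicates 1 and 4 low for both genes, and the arms overlapped.

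Taking the 30 min change from the 3 h change gave a difference that was called in CCD for 3 of the 8 genes, Gclm (2.11, SE 0.42, limma adjusted p = 0.0272), Txnrd1 (2.13, SE 0.45, limma adjusted p = 0.0377) and Hmox1 (2.49, SE 0.55, limma adjusted p = 0.0381). This direction was called for 1.22% of 10203 genes (124 higher and 28 lower, and 134 and 65 after rescaling), and the median of all genes was 0.19. Osgin1 had the largest difference, 2.87, but did not pass (SE 0.71, limma adjusted p = 0.0548), nor did Gclc with 2.08 (limma adjusted p = 0.134). In cTAL 0 of the 8 were called, with 2.81% of 9641 genes called in either direction (93 higher and 178 lower, and 142 and 138 after rescaling) and 1695 at an unadjusted p under 0.05. There Osgin1 had the smallest adjusted p, with a difference of 2.82 (SE 0.82, limma adjusted p = 0.0770). The CCD count is sensitive to the choice of libraries, since library 2 alone gave 0, and the fits without 1 replicate gave 0 to 4. Calls over all genes moved too, to 9 higher and 8 lower with library 2 alone. Without 1 replicate they ranged from 19 to 169 higher and from 6 to 58 lower. The count among the 8 genes was 0 without UUO replicate 4 or sham replicates 2, 3 or 4 at 3 h. It was also 0 without UUO replicate 1 or sham replicates 2 or 3 at 30 min. It was 1 without UUO replicate 2 at 3 h or sham replicate 4 at 30 min.

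The size of the response was not shown to differ between the segments. CCD minus cTAL was called for 0 of the 8 genes at 30 min, where 0.253% of 10287 genes were called in either direction and 1511 had an unadjusted p under 0.05. At 3 h it was called for 0 of the 8, against 1.25% of 9469 genes and 1378 at an unadjusted p under 0.05. Of the 8 differences 7 were below 0 at 3 h, among them Gclm with -0.92 (SE 0.47, limma adjusted p = 0.409), Osgin1 with -0.53 (SE 0.54) and Gclc with -0.41 (SE 0.49).

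The resting levels did differ between the segments. Within the sham replicates at 30 min 6 of the 8 genes were called higher in CCD than in cTAL, a direction called for 41.7% of 11648 genes, so such a call was common. All genes split into 4859 higher and 1541 lower in CCD, and after median-of-ratios rescaling into 3025 and 2841, with 5 of the 8 genes higher. Nfe2l2 was at 300.7 ± 37.2 TPM in CCD against 128 ± 24.5 TPM in cTAL (SD, n = 4 each), a log2 difference of 1.24 (SE 0.08, limma adjusted p = 3.30e-05). Hmox1 was at 17.5 ± 7.05 and 4.03 ± 2.20 TPM (log2 difference 1.86, SE 0.35, limma adjusted p = 0.00349). Gclm, Gclc, Keap1 and Txnrd1 had log2 differences of 1.74, 1.22, 1.05 and 0.59, while Nqo1 with -0.24 and Osgin1 with 0.29 were not called. At 3 h 4 of the 8 were called higher in CCD, against 27.7% of 10521 genes (2916 higher and 1099 lower, and 1572 and 1775 after rescaling). These were Nfe2l2 (1.43), Gclm (1.33), Hmox1 (1.00) and Txnrd1 (0.64), and every alternative but the pseudocount left 1 or 2 of them. The median of all genes was itself 0.30 at both times, so these differences are to be read relative to it.

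The order of mean levels in sham CCD at 3 h ran from Nfe2l2 at 352 TPM through Nqo1 at 33.7, Keap1 at 21.8, Txnrd1 at 19.9, Osgin1 at 18.7, Gclm at 13.7 and Gclc at 12.5 to Hmox1 at 8.33 TPM, on a scale per transcript length. After 3 h of obstruction the order in CCD was Nfe2l2 at 313, Osgin1 at 124, Gclc at 63.5, Txnrd1 at 53.7, Gclm at 41.5, Nqo1 at 37.5, Hmox1 at 33.96 and Keap1 at 15.8 TPM. In cTAL it ran from Nfe2l2 at 187, Osgin1 at 97.8, Nqo1 at 70.3, Gclc at 48.8 and Txnrd1 at 41.4 to Gclm at 28.8, Hmox1 at 17.5 and Keap1 at 7.82 TPM. In the sham order neighbours from Keap1 down had overlapping mean ± SD ranges (SDs of 2.25, 2.75, 10.1, 4.55, 6.83 and 2.19 TPM from Keap1 to Hmox1), while Nfe2l2 and Nqo1 stood apart. After obstruction the mean ± SD ranges of all neighbours below Nfe2l2 overlapped in both segments.

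Both libraries of CCD UUO replicate 2 at 3 h came out far apart. Library 1 held Osgin1 at 16.6, Gclc at 15.9, Gclm at 9.57 and Hmox1 at 12.1 TPM, and library 2 held them at 263, 87.3, 58.8 and 57.9 TPM. The first 3 of the library 1 values lay within the range of the 8 sham libraries, which reached 45.4, 22.3 and 24.8 TPM, and Hmox1 lay just above its highest, 11.5 TPM. Txnrd1 did not split in this way, with 40.5 and 50.7 TPM against a highest sham library of 25.1 TPM. UUO number 2 was also taken from library 1 alone, a setting chosen after seeing the data. Txnrd1 was then the only one of the 8 genes called in CCD (limma adjusted p = 0.0103). Calls over all genes fell too, from 526 higher and 847 lower to 244 and 468. The log2 changes were then 1.91 for Osgin1, 1.87 for Gclc, 1.19 for Gclm and 1.37 for Hmox1. With library 2 alone all 5 were called.

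Markers of the segments' own cells and of other cells moved with the response. Of the 6 principal cell markers 5 were called lower in CCD at 3 h, beside 8.04% of all genes, among them the water channels Aqp2 (log2 change of -1.24) and Aqp3 (-0.78), with a median of -0.75 over the 6. Their sum was 5400 to 9860 TPM in UUO and 15600 to 18200 TPM in sham. Intercalated cell markers were called for 0 of 5 there. In cTAL at 3 h 1 of 4 thick limb markers and 1 of 5 principal cell markers tested were called lower, beside 7.64% of all genes. The sum of 7 proximal tubule markers (Slc34a1, Lrp2, Cubn, Slc5a2, Slc5a12, Miox and Fbp1) was 175 to 946 TPM in UUO and 62.1 to 247 TPM in sham CCD at 3 h, and 204 to 816 and 6.51 to 173 TPM in cTAL. Of the 7, 5 were tested in each segment, with 3 called higher in CCD and 2 in cTAL, beside 5.0% and 4.06% of all genes. Slc5a12 was at 0 in every cTAL sham library at 3 h. Fbp1 made up most of the sum, with a mean of 432 TPM in UUO against 82.2 TPM in sham CCD. In UUO replicate 2 of CCD the sum was 93.6 TPM in library 1 and 1492 TPM in library 2, the same order as Osgin1. At 30 min it was 29.4, 349.6, 266.9 and 10.25 TPM in cTAL sham replicates 1 to 4, and replicates 2 and 3 were the ones high in Gclc and Osgin1.

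Between both libraries of a CCD number, the library with more of the proximal markers also had more Osgin1 in 14 of 16 numbers, more Gclc in 13 and more Gclm in 13. For Hmox1 and Keap1 this held in 11, for Nqo1 and Txnrd1 in 10, and for Nfe2l2 in 5. The median of 10198 genes was 8 of 16, and 1.92% of genes reached as many as Osgin1, 3.53% as many as Gclc and 25.1% as many as Txnrd1. These are counts over libraries that share a dissection, and they carry no test.

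**Figure D4:**
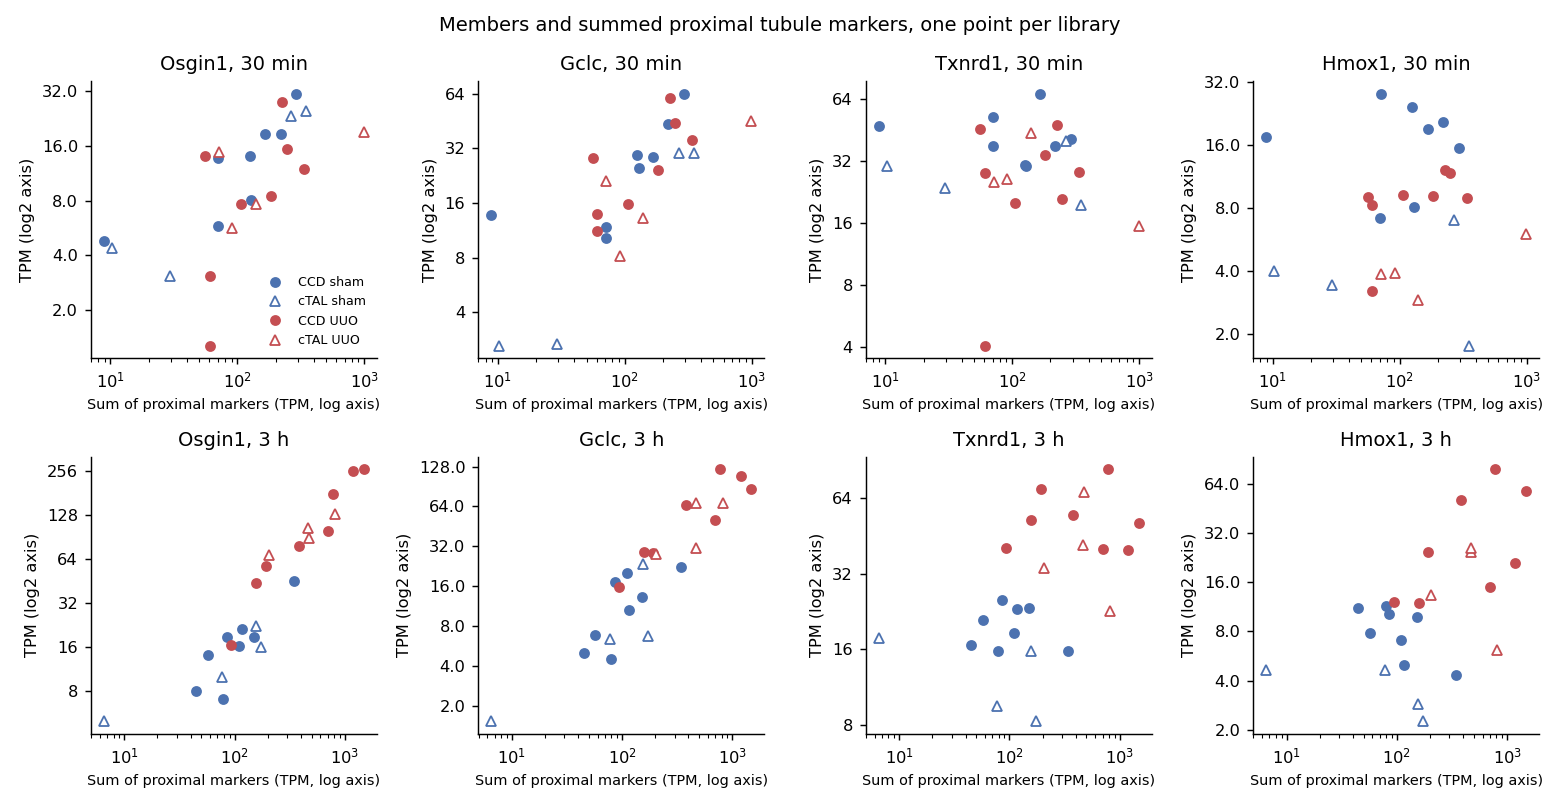
TPM of Osgin1, Gclc, Txnrd1 and Hmox1 (log2 axis) against the summed TPM of 7 proximal tubule markers (log axis), one point per library, at 30 min (top) and 3 h (bottom); circles, CCD; triangles, cTAL; blue, sham; red, UUO. At 3 h Osgin1 and Gclc rise along the marker sum in both arms, down to the UUO library at 93.6 TPM of the sum with 16.6 TPM of Osgin1, whereas within each segment every UUO point of Txnrd1 lies above every sham point.

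With the log2 proximal sum as a covariate, also chosen after seeing the data, 0 of the 8 genes were called in CCD at 3 h and 1 in cTAL. Osgin1 went to 0.99 in CCD and to 1.84 in cTAL, where it stayed called (limma adjusted p = 0.0159), and Gclc went to 0.92 and 1.06. Txnrd1 and Hmox1 kept their size or more, at 1.6 (limma adjusted p = 0.0722) and 1.61 in CCD and at 1.99 and 2.33 in cTAL. Gclm was at 0.82 in CCD and at 2.6 in cTAL. Calls over all genes also fell, to 18 higher and 9 lower in CCD and to 93 and 40 in cTAL. The sum was itself higher in UUO, so the share of a change that goes with the sum and the share that goes with obstruction cannot be told apart in these samples. Among the 8 genes in the 4 comparisons the slope on the sum was called only for Gclc in cTAL at 30 min. It was 0.63 per doubling of the sum (SE 0.10, limma adjusted p = 0.0257). At 3 h the slope of Gclc was not called (limma adjusted p = 0.426 in CCD and 0.303 in cTAL). The share of all genes with a called slope was not worked out.

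**Figure D5:**
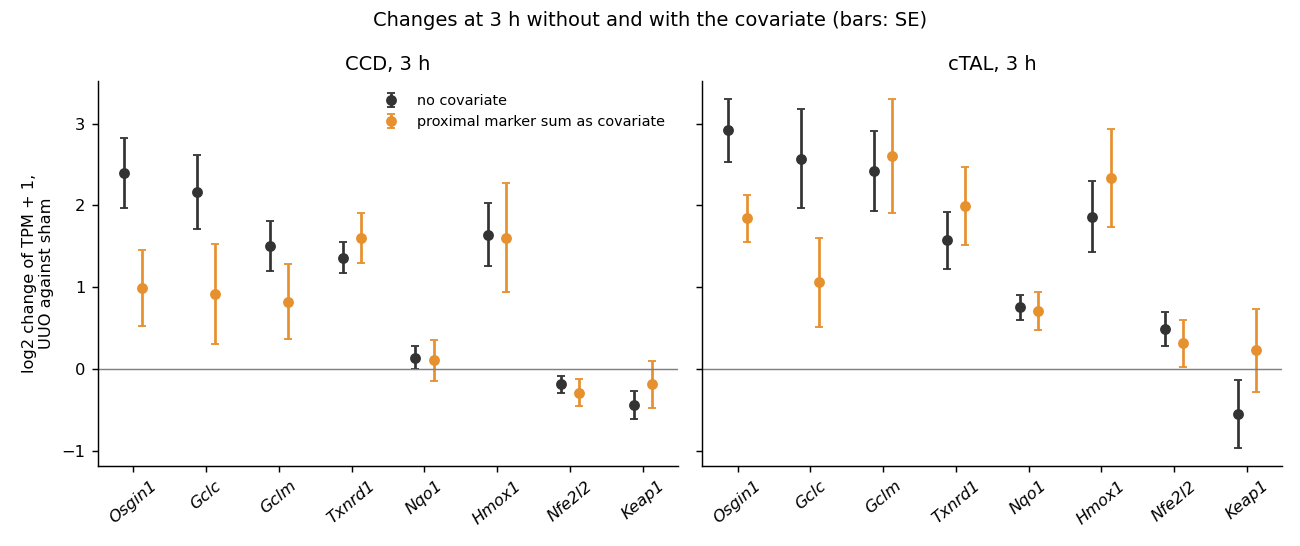
Log2 change of TPM + 1 with obstruction at 3 h for each gene in CCD (left) and cTAL (right), without a covariate and with the log2 proximal marker sum as one (points, limma estimate; bars, SE). Osgin1 and Gclc move towards 0 in both segments (in CCD from 2.39 to 0.99 and from 2.16 to 0.92), while Txnrd1 does not.

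Red cell markers also rose in CCD at 3 h, where 3 of 3 tested were called higher, beside 5.0% of all genes. Their sum was 1080 to 5720 TPM in UUO and 16.5 to 884 TPM in sham. In cTAL the sum was 1340 to 7860 and 18.1 to 2230 TPM and 0 of 3 were called. Macrophages also express Hmox1. Their markers were called higher for 3 of 6 in CCD, beside 5.0% of all genes. The sum there was 156 to 252 TPM in UUO and 82.4 to 214 TPM in sham. In cTAL 3 of 6 were called lower, beside 7.64% of all genes, with sums of 119 to 426 and 695 to 1330 TPM. Of the stromal markers 1 of 3 tested was called higher in CCD and 0 in cTAL, beside 5.0% and 4.06% of all genes. Their sum in CCD was 18.2 to 78.5 TPM in UUO and 5.68 to 16.9 TPM in sham, with Acta2 and Myh11 below 1 TPM in every replicate of CCD. Endothelial markers were called for 0 of 2 tested in CCD and lower for 3 of 3 in cTAL, beside 7.64% of all genes. The change at 3 h in CCD minus that in cTAL was called higher for 3 of 6 macrophage markers, C1qa (2.64), C1qb (2.37) and Lyz2 (2.62), beside 1.25% of all genes called in either direction, and 0 tested genes of the other marker lists were called. The part of the principal cell, red cell, macrophage, stromal and endothelial signals in the changes above was not tested.

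Some further targets changed too. Of 30 further NRF2 targets listed, 24 were tested at 3 h in each segment, and their median change was -0.01 in CCD and 0.07 in cTAL. In CCD 5 of 24 were called higher, where 5.0% of all genes were. They were the ferritin light and heavy chains Ftl1 (0.92) and Fth1 (0.69), the glutathione transferases Gsta4 (0.74) and Gstp1 (0.58), and thioredoxin Txn1 (0.40). Gsta3, another glutathione transferase, was among those called lower (-0.83). In cTAL 5 of 24 were higher, where 4.06% of all genes were, namely Gstm1 (2.76), the glutathione peroxidase Gpx2 (1.96), Ftl1 (0.64), Fth1 (0.63) and Txn1 (0.38), and Gsta3 was lower (-0.60), a direction called for 7.64% of all genes. Ferritins and glutathione transferases have near copies in the genome between which reads may be split, so their values are uncertain.

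Gstm1 joins glutathione to electrophiles. Of the members and the NRF2, antioxidant, haem and iron lists, its change alone was called different between the segments at 3 h. Such a call, in either direction, was made for 1.25% of all 9469 genes tested. The cTAL mean of Gstm1 was 1724 ± 1117 TPM in UUO compared with 210.4 ± 49.8 TPM in sham. In CCD it was 169.7 ± 23.8 TPM in UUO against 247 ± 51.2 TPM in sham (SD, n = 4 each). The change in CCD minus that in cTAL was -3.29 (SE 0.52, limma adjusted p = 0.0195).

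Among 17 partners and regulators of NRF2, 11 were tested in CCD at 3 h, with 2 called higher and 1 lower beside 5.0% and 8.04% of all genes. The small MAF proteins, with which NRF2 pairs on DNA, were higher, Mafk with means of 28.3 ± 4.67 TPM (UUO) and 11.0 ± 1.03 TPM (sham) and a log2 change of 1.27 (SD, n = 4 each; limma adjusted p = 0.00334) and Mafg with a log2 change of 0.88 (limma adjusted p = 0.0403). Dcaf11 was lower (-0.33, limma adjusted p = 0.0445). In cTAL 10 were tested, with 0 called higher and 2 lower beside 4.06% and 7.64% of all genes, and Mafk at 0.78 and Mafg at 0.78 were not called (limma adjusted p = 0.304 and 0.122). There Btrc, the E3 ligase subunit that can target NRF2 apart from KEAP1, was lower (-1.29), as was Dpp3, a KEAP1-binding peptidase (-0.82). Cul3 and Rbx1, which form the ubiquitin ligase with KEAP1, were called in neither segment.

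Of 17 other antioxidant enzymes, all tested, 2 were called higher in CCD at 3 h and 3 in cTAL, beside 5.0% and 4.06% of all genes, with 0 lower, beside 8.04% and 7.64%. Gss, which adds the last amino acid of glutathione, was higher in both, with a log2 change of 1.28 in CCD and 0.85 in cTAL (limma adjusted p = 0.0218 and 0.0304). Gpx4, which reduces lipid peroxides, was the other in CCD (0.33). In cTAL the secreted peroxidase Gpx3 (3.89) and the thioredoxin inhibitor Txnip (1.53) were the others. Gpx3 had a mean of 1846 TPM in UUO against 140.1 TPM in sham. It is a gene that proximal tubule also expresses strongly, and the part of the proximal signal in its change was not tested. Of 11 genes of haem and iron handling, 0 of 10 tested were called in CCD, and in cTAL Alas1, which starts haem synthesis, was higher (0.51) and the iron importer Slc11a2 lower (-1.16) among 9, beside the same shares of all genes. At 30 min 0 members of these lists were called in either segment.

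The genes whose levels ran closest to Osgin1, Gclc and Hmox1, the called members with the largest changes in CCD at 3 h, were sought among 9469 genes over the 16 replicates of the 3 h table, by the root mean square difference of log2 values centred in each segment. Nearest to Gclc were Espn (0.23), which bundles actin, Ddah1 (0.31), which clears asymmetric dimethylarginine, and Aspdh (0.38). Nearest to Osgin1 were Espn (0.36), Gclc (0.41) and Haao (0.43), an enzyme of tryptophan breakdown. Nearest to Hmox1 were the cell cycle inhibitor Cdkn1a (0.45), Csrnp1 (0.47) and Txnrd1 (0.50). The arms were not centred, so these distances take in the change with obstruction by which the members were picked. Any nearness beyond a like change was not tested.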

How the data were processed

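RNA of 48 CCD and cTAL libraries was used, and 8 whole-kidney samples of the series were not analysed here. Per the labels' protocols, cDNA came from a SMARTer V4 kit and libraries from Nextera XT. Reads had gone through STAR 2.7.3 and RSEM 1.3.3 on the build Rnor_6.0, per the submitters' processing notes. The deposited values are TPM per gene, 1 table per time, and levels were not compared between tables. Genes were matched by identifier, since 5174 are named differently between the tables. The protocols do not say that strand was kept, so antisense reads could not be told apart.

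Values were analysed as log2(TPM + 1), the 2 CCD libraries of a number averaged on that scale, and folds understate the change of low genes. Genes at 1 TPM or more in at least 4 of 8 replicates were tested with limma 3.58.1 (trend, R 4.3.3; Benjamini-Hochberg over all tested genes, threshold 0.05), 4 replicates against 4. Exact permutation tests were two-sided. Segment differences used CCD minus cTAL within a number. The script was tested on simulated data. Named genes were all 9 members, up to 4 called genes per list with the largest change in each comparison, and the 3 nearest genes of the 3 most changed members. Further list members were named after their values were seen, and 1 listed gene is not reported here. Members and lists were chosen with earlier results of these data known. Replicate numbers deviated together in CCD at 30 min only (correlations of 0.188, 0.148, 0.115 and 0.229 for numbers 1 to 4), and there the number as a block changed no call. Alternatives were the pseudocount, the filter, rescaling, the block, single libraries and leaving out replicates. Promoter windows came from RefSeq, build GRCr8, matched by symbol. Python 3.11.15 and matplotlib 3.10.9 drew the figures.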

Additional observations from a re-analysis of the deposited data

Results flagged for a closer look

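Among the 8 genes, the change with obstruction in CCD differed between 30 min and 3 h for Gclm, Hmox1 and Txnrd1, by a test of the difference itself. The difference, the log2 change at 3 h minus that at 30 min, was 2.11 for Gclm (limma adjusted p = 0.0272), 2.49 for Hmox1 (limma adjusted p = 0.0381) and 2.13 for Txnrd1 (limma adjusted p = 0.0377). For each of them the change was below 0 at 30 min (-0.61, -0.84 and -0.77, none called) and above 0 at 3 h (1.51, 1.64 and 1.36, all called). The median of all genes in CCD at 30 min was itself -0.31, and the 30 min change of Gclm turned sign from library 2 alone. Without 1 replicate the called time difference was lost in 7 of 16 fits for Gclm, 12 of 16 for Hmox1 and 9 of 16 for Txnrd1. The median of all genes was 0.19 for this difference. On the scale of log2(TPM + 1), no replicate stood far from the others of its group by Dixon's limit for 4 values in any of the 64 groups of the 8 genes. This does not carry over to the TPM scale, where Nqo1 in cTAL sham at 30 min was at 18.6, 35.9, 20.8 and 21.0 TPM.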

How the results depend on the processing

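None of the 11 changes called at 3 h turned direction in 168 fits under other settings, and 41 of these fits lost the call; the cause was not tested. In CCD at 3 h 5 genes were called; library 1 alone gave 1, library 2 alone 3, number 2 from library 1 gave 1, the proximal covariate 0 (the last 2 chosen after seeing the data), and fits without 1 replicate 3 to 5, the lowest without sham replicate 2. With no filter Hmox1 lost its call in CCD (adjusted p = 0.0566), and Hmox1 and Gclc lost theirs in cTAL (0.0540 and 0.0612). In cTAL at 3 h 6 were called; the covariate gave 1 and fits without 1 replicate 3 to 6, the lowest without UUO or sham replicate 4. At 30 min library 1 alone called 1 gene lower in CCD and 1 segment difference. Over all genes it called 6 higher and 872 lower in CCD, and 9 higher and 652 lower for the segment difference. Fits without 1 replicate called 0 to 1 segment differences, and over all genes 0 to 7 higher and 0 to 622 lower. The time difference in CCD, 3 genes, fell to 0 with no filter or with library 2 alone, and to 0 to 4 without 1 replicate. Over all genes its calls went from 124 higher and 28 lower to 26 and 9 with no filter. In cTAL the count was 0, 1 after median-of-ratios rescaling and 0 to 2 without 1 replicate. The sham segment difference at 3 h, 4 genes, was 1 with no filter, 2 after rescaling, without the replicate block (pairing), from library 1, from library 2 or without the Umod-rich libraries, and 1 to 2 without 1 replicate. With the replicate number as a block, Hmox1 (adjusted p = 0.0577) and Nqo1 (0.0514) lost their calls in cTAL at 3 h, where the numbers were not shown to pair samples, and no other main call changed.

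Changes that were not called could turn sign. After median-of-ratios rescaling, which moved the median of all genes in CCD from -0.31 to -0.02 at 30 min and from -0.14 to -0.01 at 3 h, Nqo1 was at 0.26 and Nfe2l2 at 0.17 in CCD and Txnrd1 at 0.013 in cTAL at 30 min. The segment difference of Nfe2l2 was then 0.24, its time difference in CCD -0.20, and the sham segment difference of Osgin1 -0.032. From library 1 alone Gclc was at -0.23 in CCD at 30 min, Nfe2l2 at 0.087 (segment, 30 min) and -0.0045 (time), and Keap1 at -0.030 (segment, 3 h). From library 2 alone Gclm was at 0.57 at 30 min and Nqo1 at -0.018 at 3 h. With number 2 at 30 min from library 1, Nqo1 was at 0.00063, and Nfe2l2 at 0.077 (segment) and -0.11 (time). The covariate gave -0.23 for Gclc in CCD, -0.45 for Osgin1, 0.026 for Txnrd1 and 0.013 for Keap1 in cTAL at 30 min, and 0.23 for Keap1 in cTAL at 3 h.

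Without 1 replicate the ranges that crossed 0 were, in CCD at 30 min, -0.20 to 0.36 for Gclc and -0.32 to 0.070 for Nqo1. In cTAL at 30 min they were -0.38 to 0.51 for Osgin1, -0.15 to 0.36 for Hmox1, -0.32 to 0.16 for Txnrd1 and -0.46 to 0.17 for Keap1. For the segment difference they were -0.15 to 0.076 for Nfe2l2 at 30 min, and -0.75 to 0.023 for Gclc, -0.43 to 0.087 for Hmox1, -0.34 to 0.12 for Txnrd1 and -0.14 to 0.56 for Keap1 at 3 h. The time difference of Nfe2l2 in CCD ranged from -0.13 to 0.093.

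Over all genes, calls in CCD at 30 min went from 1 higher and 2 lower to 6 and 872 with library 1 alone. In CCD at 3 h they went from 526 and 847 to 341 and 511 with no filter and to 167 and 464 with library 1. They were 231 and 225 with library 2, and 244 and 468 with number 2 from library 1. Lower calls fell to 455 after rescaling and 380 with the block. In cTAL at 3 h 407 and 766 became 252 and 328 with the block, with 241 higher under no filter and 414 lower after rescaling. Without 1 replicate the calls ranged from 229 to 617 higher and 231 to 1156 lower in CCD at 3 h (lowest without sham replicate 2, highest without UUO replicate 3 for higher and UUO replicate 1 for lower), and from 207 to 406 and 264 to 630 in cTAL (lowest without sham replicate 2). Depth is unknown, so no limit of detection can be given.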
